A study of Mus musculus with 8 samples.

Results

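The Slc25 genes encode the mitochondrial carriers, and the table of gene levels from 8 mouse hearts lists 38 of them among 11704 genes. They were chosen by name alone, as every listed gene whose symbol starts with Slc25a and a digit. Of the 38, 36 averaged 1 FPKM or more (fragments per kilobase of transcript, scaled to the mapped fragments of the library) and entered the test, and Slc25a47 and Slc25a14 did not. Newborn mice had received an adeno-associated virus, serotype 9, under the skin. In 4 hearts it carried mouse Fgf17, a secreted fibroblast growth factor (AAV-FGF17), and in the other 4 it was the control vector. Whole hearts were taken at 8 to 10 weeks of age, so all hearts share the virus serotype, the route and the age. Strain, sex and the promoter of the vector are not given in the sources used here. The table names its columns for sham, and no label says that these mice had surgery.

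Carriers of this family sit in the inner mitochondrial membrane, which is closed to most charged metabolites. Each one is built from repeats of a common module and usually swaps 1 substrate for another, so that ATP, phosphate, carboxylic acids, amino acids, acylcarnitines, cofactors and iron can pass between matrix and cytosol. The heart makes nearly all of its ATP in mitochondria, and its most used members are the adenine nucleotide translocator that exports ATP and the carrier that brings phosphate in.

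Fgf17 was measured at 90.8, 173, 69.0 and 123 FPKM in AAV-FGF17 hearts 1 to 4 and at 9.59, 1.43, 0.560 and 9.86 FPKM in control hearts 1 to 4, so the groups did not overlap. With a limma adjusted p of 0.248 over all genes, the delivered gene itself did not pass the test. All 8 cardiomyocyte markers on the fixed list (Myh6, Actc1, Tnnt2, Tnni3, Myl2, Mb, Ryr2 and Pln) were listed, and their summed level lay between 11578 and 12552 FPKM in AAV-FGF17 hearts and between 11492 and 24036 FPKM in control hearts. Control hearts 2 and 3 stood apart from the other 6. Mitochondrially encoded genes held 44.5% and 30.9% of the FPKM sum in these controls. They held 62.8% to 66.9% in AAV-FGF17 hearts, against 64.0% and 64.1% in control hearts 1 and 4. FPKM divides by the whole library, so a lower mitochondrial share leaves more of the sum to nuclear genes, and the summed FPKM of the family was 1834 and 2025 in these controls and between 1134 and 1279.8 in the other 6 hearts. Control hearts 1 and 4, at 9.59 and 9.86 FPKM, held more Fgf17 than control hearts 2 and 3, so each change given below without control hearts 2 and 3 sets the AAV-FGF17 hearts against the controls with the most Fgf17. Control hearts 1 and 4 also lay close together in several abundant genes, as in Ckm at 240.8 and 240.7 FPKM and Vdac3 at 37.6 FPKM in both. These hearts were also close in genes that varied widely over the 8 hearts, as in Bmp10 at 61.9 and 64.5 FPKM, where the range was 0.436 to 73.1 FPKM. They lay apart in others, as in Slc25a51 at 3.37 and 7.93 FPKM. Whether they are 2 independent hearts was not tested, so changes without control hearts 2 and 3 may rest on fewer than 2 independent controls. An alternative given below averages them as 1 sample. In whole tissue, fewer cells of a type and less RNA per cell cannot be told apart. Since the labels number the hearts without tying each to an animal, the tests speak only of the spread between these 8 samples.

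The levels fell into a steep order. Slc25a4, the adenine nucleotide translocator of heart and skeletal muscle (ENSMUSG00000031633.4, GRCm38 chromosome 8, 46206797 to 46211284, minus strand), averaged 894 FPKM over the 8 hearts. It alone made up 61.0%, 64.3%, 61.6% and 62.3% of the summed FPKM of the family in AAV-FGF17 hearts 1 to 4. In control hearts 1 to 4 its share was 61.9%, 70.0%, 72.3% and 61.2%. Slc25a5, the translocator form of most proliferating tissues (ENSMUSG00000016319.3, chromosome X, 36795651 to 36798807, plus strand), ranked second in each heart with a mean of 101 FPKM. Slc25a11, the 2-oxoglutarate and malate carrier (mean 67.1 FPKM), and Slc25a3, the phosphate carrier (62.6 FPKM), shared the next places, and each ranked 3 or 4 in every heart. They were followed by Slc25a34, a carrier with no settled substrate (36.9 FPKM), Slc25a13, the aspartate and glutamate carrier citrin (30.3 FPKM), Slc25a20, the carnitine and acylcarnitine carrier (28.5 FPKM), and Slc25a46, an outer membrane member that takes part in mitochondrial shape (21.6 FPKM). Only these 8 members averaged over 20 FPKM, and 21 of the 38 averaged under 5 FPKM.

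Most neighbours in this order cannot be told apart from the spread over hearts. Of the 37 pairs of neighbours, 3 had ranges over the 8 hearts that did not overlap, namely Slc25a4 over Slc25a5, Slc25a3 over Slc25a34, and Slc25a20 over Slc25a46. In 1 further pair, Slc25a5 over Slc25a11, the order was the same in all 8 hearts although the ranges overlapped. Among low members the rank moved widely, and Slc25a1, the citrate carrier, ranged from rank 16 to rank 29.

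**Figure D1:**
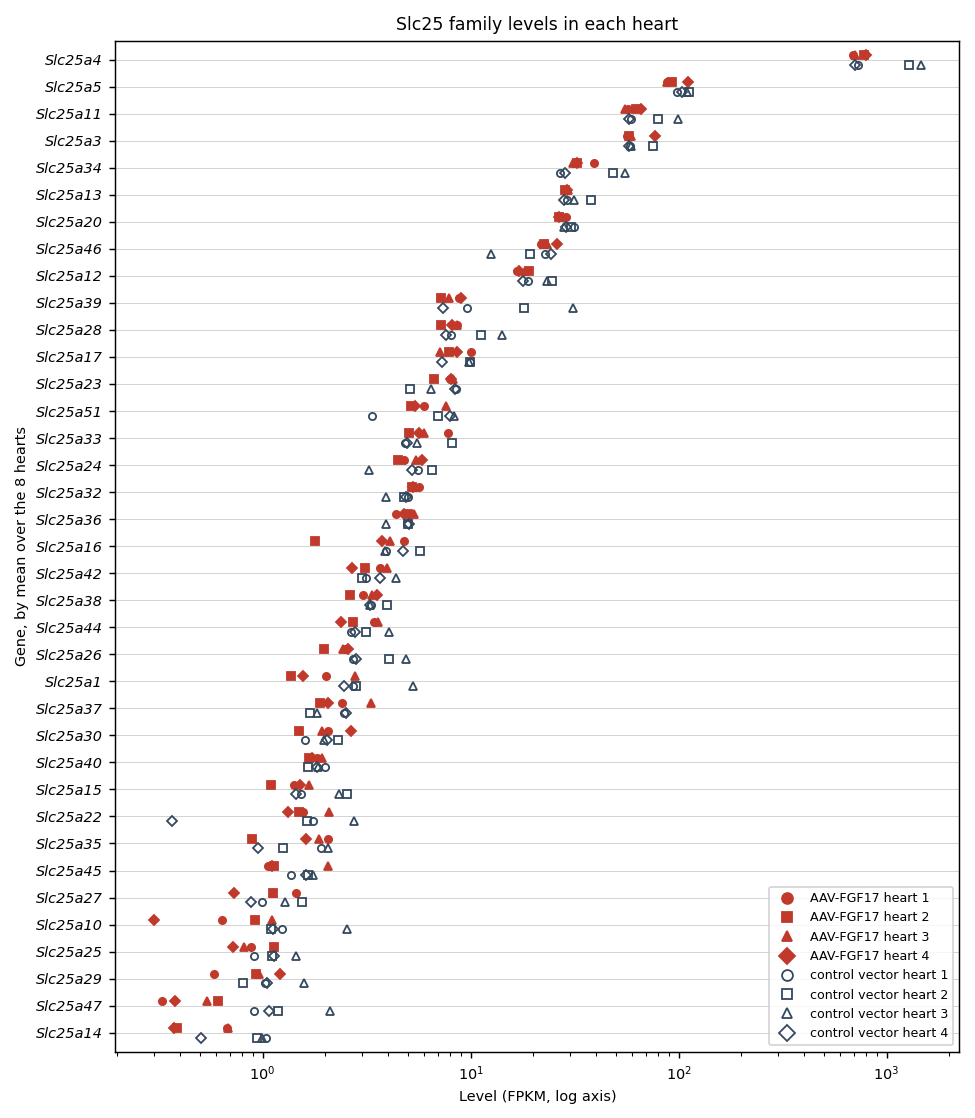
Level of the Slc25 genes in each of the 8 hearts, in FPKM on a log axis, with genes ordered by their mean. Filled red symbols are AAV-FGF17 hearts 1 to 4 and open dark symbols are control hearts 1 to 4. Slc25a4 lies apart at 692 FPKM or more, and for several members the open square and triangle, control hearts 2 and 3, lie away from the other symbols.

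The order also depends on the length by which a gene was divided. Slc25a3 (chromosome 10, 91116574 to 91124059, minus strand) is the clearest case. Its deposited values, multiplied by 5550, came out as whole numbers of millionths in all 8 hearts, and 5550 bases is the union of all its annotated exons. That union includes isoforms with retained introns, while its longest protein-coding transcript has 1612 bases. In 29 of the 38 members the values were whole at the union of exons in all 8 hearts, within a tolerance of 0.02 millionths. Over the table this held for 9321 of 9959 genes with more than 6 decimals (93.6%), against 11 at a length of 1 base more. Divided by the longest protein-coding transcript, Slc25a3 averaged 216 FPKM and took rank 2, above Slc25a5 at 134 FPKM, and Slc25a20 moved from rank 7 to rank 5 at 77.5 FPKM. Slc25a26 moved most, by 8 places from rank 24 to rank 16, and 7 members moved by 5 places or more. Slc25a4 stayed first at 1093 FPKM, with 54.0% to 66.9% of the family sum. The length is the same in every heart, so the ratio of a gene's FPKM between hearts does not depend on it, while the filter at 1 FPKM and the change on the log2(FPKM + 1) scale do. This rescaling was chosen after the values were seen. It changed 31 members, and the others kept their deposited values, so the rescaled ranks mix both kinds. Slc25a34 has a single transcript of 2670 bases and could not move in level. Slc25a28, with a union of 3749 bases against 1535 in its longest protein-coding transcript, was left as deposited.

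**Figure D2:**
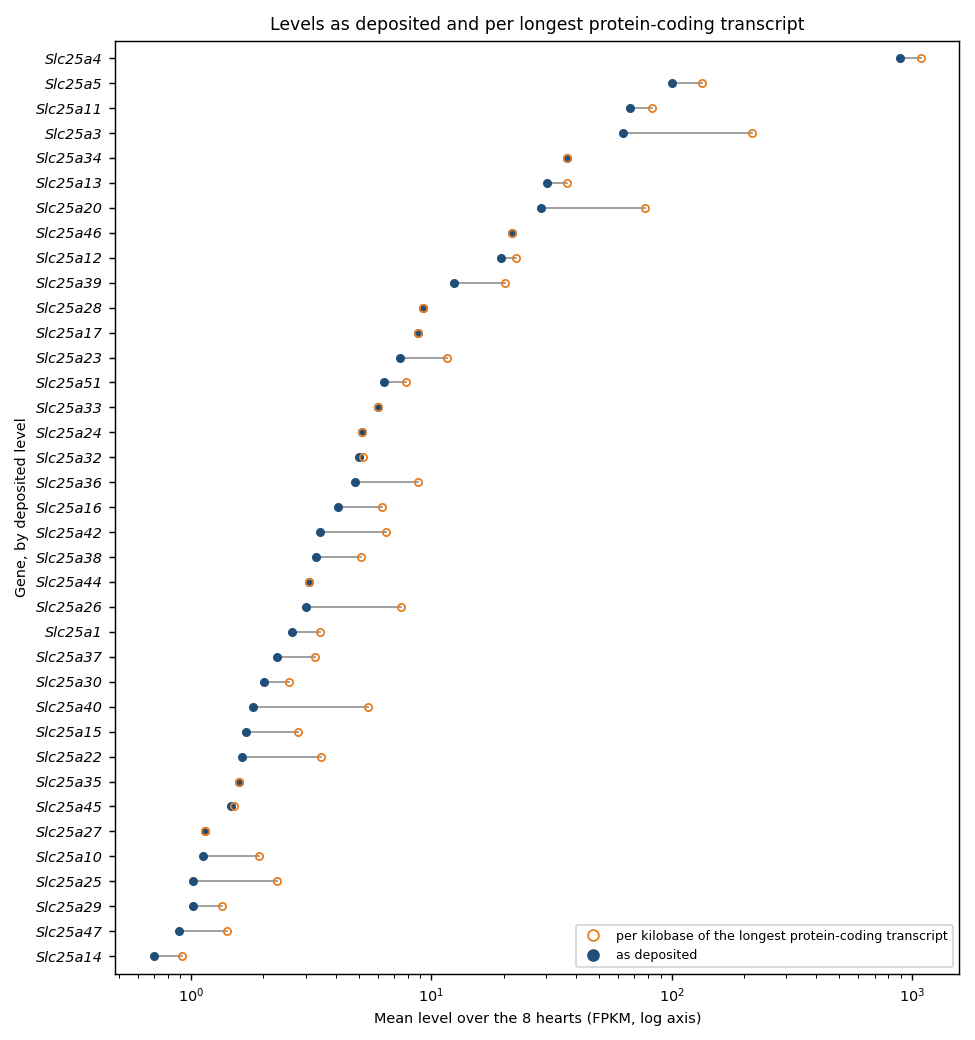
Mean level of Slc25 genes over the 8 hearts in FPKM on a log axis, per kilobase of the longest protein-coding transcript (open orange) and as deposited (filled blue), with a line joining the values of a gene. Slc25a3 moves from 62.6 to 216 FPKM and passes Slc25a5 and Slc25a11, while members left at their deposited values, Slc25a34 among them, do not move.

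Stretches of 250 bases before the RefSeq start are printed for 5 members, the translocator pair and the phosphate carrier because they lead the order, Slc25a39 because it varied most between hearts among members over 10 FPKM, and Slc25a34 because it is the most abundant member with no settled substrate. They are from the RefSeq promoter table of GRCm38.p6, which holds 29 of the 38 members, and run 5′ to 3′ on the strand of the gene. Capitals mark motifs, searched on both strands. The GC box is written GGGCGG, the binding motif of nuclear factor Y is CCAAT, the motif of ETS factors is CCGGAAG, and the half-site of estrogen-related receptors is AAGGTCA. Other motifs searched were the E-box, written CACGTG, the cAMP response element, written TGACGTCA, the TATA box, written TATAAA, and the palindrome of NRF1.
Slc25a4, chr8:46211063-46211312, minus strand: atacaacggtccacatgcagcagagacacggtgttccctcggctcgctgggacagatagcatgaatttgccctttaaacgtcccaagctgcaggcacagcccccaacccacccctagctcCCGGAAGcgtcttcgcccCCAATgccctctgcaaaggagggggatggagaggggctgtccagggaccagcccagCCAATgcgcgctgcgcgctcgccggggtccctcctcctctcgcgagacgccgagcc
Slc25a5, chrX:36795347-36795596, plus strand: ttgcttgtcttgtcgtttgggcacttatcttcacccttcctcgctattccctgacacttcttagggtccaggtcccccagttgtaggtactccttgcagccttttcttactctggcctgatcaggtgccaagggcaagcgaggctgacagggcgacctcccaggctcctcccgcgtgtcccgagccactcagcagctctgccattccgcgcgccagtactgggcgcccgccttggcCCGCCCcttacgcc
Slc25a3, chr10:91123968-91124217, minus strand: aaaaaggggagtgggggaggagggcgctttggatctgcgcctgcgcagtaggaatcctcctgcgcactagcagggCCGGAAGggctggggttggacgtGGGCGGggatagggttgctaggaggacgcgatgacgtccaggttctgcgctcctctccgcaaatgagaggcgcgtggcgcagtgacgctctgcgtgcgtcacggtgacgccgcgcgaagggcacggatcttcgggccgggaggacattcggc
Slc25a39, chr11:102407518-102407767, minus strand: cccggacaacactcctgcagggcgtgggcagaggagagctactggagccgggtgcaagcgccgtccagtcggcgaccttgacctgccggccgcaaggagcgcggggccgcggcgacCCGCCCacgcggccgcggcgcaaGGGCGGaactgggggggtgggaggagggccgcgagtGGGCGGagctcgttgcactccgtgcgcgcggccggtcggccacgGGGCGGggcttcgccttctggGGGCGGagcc
Slc25a34, chr4:141623835-141624084, minus strand: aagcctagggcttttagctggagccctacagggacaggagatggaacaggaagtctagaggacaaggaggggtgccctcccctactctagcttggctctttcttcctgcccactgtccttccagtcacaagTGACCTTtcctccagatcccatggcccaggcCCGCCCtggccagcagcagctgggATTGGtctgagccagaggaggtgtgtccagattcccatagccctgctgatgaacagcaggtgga

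The translocator pair differs in these letters. The window of Slc25a4 holds a pair of CCAAT matches and an ETS match and no GC box, and that of Slc25a5 holds 1 GC box. The window of Slc25a39 holds 5 GC boxes at 77.2% G and C, against a median of 52.4% over all 32851 windows. That of Slc25a34 holds the only AAGGTCA match among the 37 windows of the family, read on the strand opposite to the gene, a motif found in 4.08% of all windows. A GC box is present in 28 of the 37 windows (75.7%), against 32.7% of all windows, and CCAAT in 19 of 37 (51.4%), against 33.8%. The TATA box and the NRF1 motif had 0 matches in the family, against 12.4% and 0.782% of all windows. These are matches of letters and not shown to be sites. For Slc25a5 and Slc25a34 the 50 bases after the RefSeq start were not found in a GENCODE M21 transcript of the gene. The window of Slc25a39 lies inside the gene by the deposited coordinates. Those of Slc25a4 and Slc25a3 lie partly inside, since the deposited genes end at 46211284 and 91124059. All marked matches of Slc25a4 fall in the part inside the gene, so the 2 annotations place some starts differently.

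Between the groups, no Slc25 gene passed the test. Limma on log2(FPKM + 1), adjusted over all 10025 tested genes, called 0 of 36 members higher and 0 lower, and over all genes it called 0% in each direction. Adjusted p-values of members lay between 0.495 and 0.997. At an unadjusted p under 0.05 there were 0 members higher, against 1.36% of all genes, and 3 lower (8.33%), against 7.98% of all genes, so the share is that of the background. The 3 were Slc25a26, Slc25a1 and Slc25a10. Of these, Slc25a10 reached the filter at 1 FPKM only through its control hearts. The groups did not overlap in 2 members, Slc25a32 with higher values in AAV-FGF17 hearts, against 0.998% of all genes, and Slc25a26 with lower ones, against 4.64%. Median-of-ratios scaling gave 1 member higher at an unadjusted p under 0.05, Slc25a32, against 4.63% of genes, and 3 lower, against 3.88%. Under that scaling 1 member lay apart upwards, against 2.87% of genes, and 1 downwards, against 2.43%. As deposited the median tested gene lay at -0.12 on the log2 scale, so changes below are relative to it unless said to be as fitted, while p-values test the change as fitted. The median member lay at 0.00 relative to the median gene, with 19 members above it and 17 (47.2%) under it, where 50% of all genes lie. In 27 of 36 members the change was within 0.2 of the median gene, and the whole range ran from -0.61 for Slc25a39 to 0.40 for Slc25a46. The fit could not exclude moderate changes, since the median tested gene had a 95% half-width of 0.33.

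**Figure D3:**
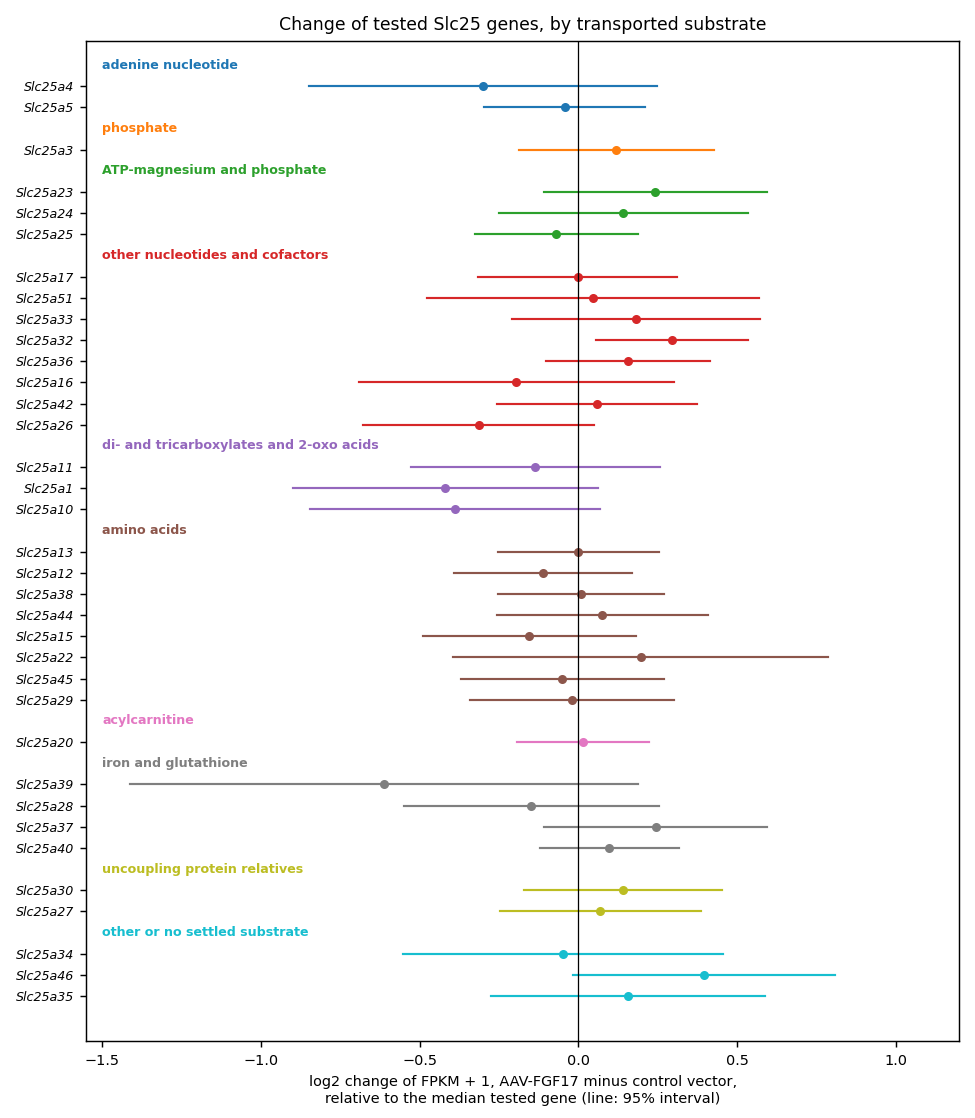
Log2 change of FPKM + 1, AAV-FGF17 minus control vector, relative to the median tested gene, for tested Slc25 genes grouped by substrate. Points are estimates and lines are 95% intervals of limma (n = 4 hearts a group). Estimates lie on both sides of 0, and the interval of Slc25a39 is the widest, with its point at -0.61.

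Carriers of adenine nucleotides and phosphate, which couple the matrix to the use of ATP, did not pass. Slc25a4 measured 692, 775, 706 and 798 FPKM in AAV-FGF17 hearts 1 to 4 and 727, 1284, 1465 and 706 FPKM in control hearts 1 to 4. The AAV-FGF17 hearts lay with control hearts 1 and 4, and control hearts 2 and 3 were higher than all others. Its change was -0.30 ± 0.25 (SE, limma adjusted p = 0.499), and it was 0.07 without control hearts 2 and 3. Taken as a share of nuclear FPKM, which leaves the mitochondrial transcripts out, Slc25a4 held 0.434%, 0.504%, 0.430% and 0.472% in AAV-FGF17 hearts. The same share was 0.454%, 0.635%, 0.643% and 0.443% in control hearts 1 to 4, so control hearts 2 and 3 stayed highest on that scale. The other 37 members together held 0.277%, 0.280%, 0.268% and 0.285% of nuclear FPKM in AAV-FGF17 hearts, against 0.279%, 0.272%, 0.246% and 0.281% in control hearts, where the 2 hearts were not high. The cardiomyocyte list was high in the same hearts as Slc25a4. Of its 8 members 7 lay below the median gene, and the median member stood at -0.27, against 0.05 without control hearts 2 and 3. Its score per heart ran from -0.21 to -0.01 in AAV-FGF17 hearts and was -0.17, 0.35, 0.53 and -0.20 in control hearts 1 to 4. The score is the mean over the list of log2(FPKM + 1), each gene centred on its mean over the 8 hearts and each heart on its median gene, and its part in the level of Slc25a4 was not tested.

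Slc25a5 varied little, at 87.8, 93.4, 88.3 and 111 FPKM in AAV-FGF17 hearts and 98.6, 112, 109.9 and 104 FPKM in control hearts. Only AAV-FGF17 heart 4 reached into the control range, and the change was -0.04 ± 0.11 (SE, limma adjusted p = 0.536). The annotation holds a pseudogene that carries its name, and how reads were divided between copies is not given in the sources used here. Slc25a3 measured 56.6, 58.0, 59.1 and 77.0 FPKM in AAV-FGF17 hearts and 58.5, 75.1, 58.9 and 57.6 FPKM in control hearts. In each group 1 heart stood at 75.1 FPKM or more and the other 3 between 56.6 and 59.1 FPKM, and the change was 0.12 ± 0.14 (SE, adjusted p = 0.997).

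The carriers of ATP-magnesium and phosphate load the matrix with nucleotides and respond to calcium. Slc25a23 averaged 7.71 ± 0.714 FPKM in AAV-FGF17 hearts and 7.10 ± 1.64 FPKM in control hearts (SD, n = 4 each), with 5.09 and 6.44 FPKM in control hearts 2 and 3 as the lowest of the 8 values. Slc25a24 averaged 5.14 ± 0.606 FPKM against 5.15 ± 1.38 FPKM in controls. Slc25a25 measured 0.882, 1.13, 0.818 and 0.721 FPKM in AAV-FGF17 hearts and 0.907, 1.12, 1.45 and 1.14 FPKM in control hearts, with a change of -0.07 ± 0.12 (SE, adjusted p = 0.507). Its mean was 0.888 FPKM in AAV-FGF17 hearts and 1.15 FPKM in control hearts, so it reached the filter through the controls.

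Carriers of other nucleotides and cofactors numbered 9 in the test, of which 5 exceeded the median gene. Slc25a32, which carries folate or flavin cofactors into the matrix (chromosome 15, 39091231 to 39112716, minus strand), measured 5.67, 5.22, 5.36 and 5.27 FPKM in AAV-FGF17 hearts and 5.03, 4.80, 3.93 and 4.88 FPKM in control hearts. Every AAV-FGF17 value exceeded every control value, and the nearest were 5.22 and 5.03 FPKM. Its change was 0.30 ± 0.11 (SE, limma adjusted p = 0.504), it was 0.12 without control hearts 2 and 3, and the groups overlapped once values were rescaled without mitochondrially encoded genes.

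Slc25a26, the carrier of the methyl donor S-adenosylmethionine (chromosome 6, 94500331 to 94604672, plus strand), measured 2.48, 1.97, 2.45 and 2.58 FPKM in AAV-FGF17 hearts and 2.72, 4.08, 4.87 and 2.81 FPKM in control hearts. All AAV-FGF17 hearts lay below all controls, also after rescaling without mitochondrially encoded genes. Its change was -0.31 ± 0.16 (SE, adjusted p = 0.495), and -0.14 without control hearts 2 and 3. Its exons overlap those of Lrig1 on the other strand, and whether reads were counted by strand is not given in the sources used here.

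The other cofactor carriers described here differed by less than their spread. Slc25a17, a carrier of the peroxisome, averaged 8.43 ± 1.25 FPKM in AAV-FGF17 hearts and 9.25 ± 1.33 FPKM in control hearts (SD, n = 4 each). Slc25a51, which brings in NAD, averaged 6.04 ± 1.10 against 6.65 ± 2.25 FPKM. The pyrimidine nucleotide carriers Slc25a33 and Slc25a36 averaged 6.12 ± 1.18 against 5.87 ± 1.57 FPKM and 4.88 ± 0.393 against 4.73 ± 0.555 FPKM. Slc25a42, for coenzyme A, averaged 3.35 ± 0.561 against 3.54 ± 0.620 FPKM. Slc25a16 averaged 3.60 ± 1.29 against 4.57 ± 0.878 FPKM, with AAV-FGF17 heart 2 at 1.79 FPKM as its lowest.

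The 3 tested carriers of di- and tricarboxylates all lay below the median gene, and none passed. Slc25a11, a limb of the malate and aspartate shuttle that moves reducing power into mitochondria, measured 57.4, 62.3, 55.5 and 66.1 FPKM in AAV-FGF17 hearts and 58.8, 79.7, 99.2 and 57.6 FPKM in control hearts. Control hearts 2 and 3 were again the highest, and its change of -0.14 ± 0.18 (SE, adjusted p = 0.530) was 0.07 without them. Its exons overlap Rnf167 on the other strand.

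Slc25a1 exports citrate, the source of cytosolic acetyl-CoA for lipid synthesis (chromosome 16, 17925211 to 17928219, minus strand). It measured 2.01, 1.37, 2.80 and 1.57 FPKM in AAV-FGF17 hearts and 2.72, 2.82, 5.28 and 2.46 FPKM in control hearts. AAV-FGF17 heart 3 lay among the controls and the other 3 below them, and the change was -0.42 ± 0.21 (SE, limma adjusted p = 0.495). Leaving out control hearts 2 and 3 gave -0.29. Slc25a10, the dicarboxylate carrier, which is abundant in white fat and liver (chromosome 11, 120491840 to 120499187, plus strand), measured 0.638, 0.924, 1.11 and 0.30 FPKM in AAV-FGF17 hearts and 1.23, 1.10, 2.54 and 1.12 FPKM in control hearts. AAV-FGF17 heart 3 again reached the controls, and the change was -0.39 ± 0.20 (SE, adjusted p = 0.495). Markers of white adipocytes were, like Slc25a1 and Slc25a10, highest in heart 3 of each group. Their score was -0.82, -0.79 and 0.58 in AAV-FGF17 hearts 1 to 3 and lowest of all in AAV-FGF17 heart 4, and it was 0.40, 0.13, 0.97 and 0.49 in control hearts. All 6 tested markers of 7 lay below the median gene, their summed level ran from 51.1 to 207 FPKM in AAV-FGF17 hearts and from 146 to 349.7 FPKM in control hearts, and no marker was at 0 in any heart. The trait was not particular to fat, since the score of atrial cardiomyocyte markers was also highest in heart 3 of each group. That score was 0.38, -1.63, 0.53 and -1.16 in AAV-FGF17 hearts 1 to 4 and 0.69, -0.67, 1.12 and 0.69 in control hearts. The part of either set of markers in the levels of Slc25a1 and Slc25a10 was not tested.

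Among the 8 tested amino acid carriers, 4 lay above the median gene and 4 below. Slc25a13 was the steadiest abundant member in AAV-FGF17 hearts, at 28.7, 28.5, 29.4 and 29.0 FPKM, against 29.0, 38.1, 31.3 and 28.3 FPKM in control hearts. Its change as fitted was -0.12 ± 0.11 (SE, adjusted p = 0.622). Its partner in the same exchange is Slc25a12 or aralar, often described as the main form of heart and brain. By FPKM it lay below Slc25a13 in each heart here, and also per longest protein-coding transcript, with means of 22.6 and 36.9 FPKM. Slc25a12 measured 16.7, 19.1, 18.3 and 17.2 FPKM in AAV-FGF17 hearts and 18.9, 24.7, 23.4 and 17.8 FPKM in control hearts. Control hearts 2 and 3 were highest, with a change of -0.11 ± 0.13 (SE, adjusted p = 0.496), and -0.02 without them. Slc25a15, the ornithine carrier of the urea cycle, measured 1.42, 1.10, 1.68 and 1.52 FPKM in AAV-FGF17 hearts and 1.53, 2.53, 2.32 and 1.46 FPKM in control hearts (change -0.16 ± 0.15, SE, adjusted p = 0.496), and its change without control hearts 2 and 3 was -0.02.

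The other amino acid carriers were low. Slc25a38, the glycine carrier that feeds heme synthesis, averaged 3.15 ± 0.408 FPKM in AAV-FGF17 hearts and 3.47 ± 0.347 FPKM in control hearts (SD, n = 4 each). Slc25a44, for branched-chain amino acids, averaged 3.04 ± 0.579 against 3.16 ± 0.626 FPKM. The glutamate carrier Slc25a22 averaged 1.62 ± 0.320 against 1.62 ± 0.978 FPKM, and control heart 4 held its lowest value, 0.368 FPKM. Slc25a45 averaged 1.34 ± 0.477 against 1.60 ± 0.167 FPKM, and Slc25a29, for basic amino acids, 0.921 ± 0.257 against 1.12 ± 0.334 FPKM.

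Slc25a20 delivers acylcarnitines to fatty acid oxidation, the main fuel pathway of the heart (chromosome 9, 108662088 to 108684641, plus strand). It was the member with the smallest spread, 1.18-fold between its highest and lowest heart. It measured 28.7, 26.5, 28.0 and 26.6 FPKM in AAV-FGF17 hearts and 31.3, 30.3, 28.0 and 28.7 FPKM in control hearts. The groups overlapped between 28.0 and 28.7 FPKM, and the change was 0.01 ± 0.09 (SE, adjusted p = 0.600), against -0.10 without control hearts 2 and 3.

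Iron and glutathione carriers held the member of widest spread among those over 10 FPKM. Slc25a39, which brings glutathione into mitochondria (chromosome 11, 102402985 to 102407946, minus strand), measured 8.83, 7.22, 7.91 and 8.98 FPKM in AAV-FGF17 hearts and 9.59, 18.2, 31.2 and 7.35 FPKM in control hearts. The AAV-FGF17 hearts lay with control hearts 1 and 4, and control hearts 2 and 3 stood far above. Its change of -0.61 ± 0.36 (SE, limma adjusted p = 0.495) was -0.01 without those hearts. Its close relative Slc25a40 averaged 1.79 ± 0.117 FPKM in AAV-FGF17 hearts and 1.83 ± 0.143 FPKM in control hearts and did not share that spread. The mitoferrins bring iron to heme and iron-sulphur cluster assembly. Slc25a28, the form of most tissues, averaged 8.16 ± 0.648 against 10.3 ± 3.08 FPKM. Slc25a37, the form of red cell precursors, measured 2.42, 1.89, 3.34 and 2.06 FPKM in AAV-FGF17 hearts and 2.47, 1.68, 1.84 and 2.51 FPKM in control hearts. All 5 tested of 6 erythroid markers lay above the median gene, with a summed level from 929 to 1362 FPKM in AAV-FGF17 hearts and from 651 to 1238 FPKM in control hearts. Their score was 0.21, 0.16, -0.05 and 0.47 in AAV-FGF17 hearts and -0.54, 0.18, 0.10 and -0.56 in control hearts. It was thus lowest in AAV-FGF17 heart 3 and control hearts 1 and 4, the hearts with the most Slc25a37 in their groups. The part of these markers in the level of Slc25a37 was not tested.

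Members with no settled substrate or a role outside transport included 2 of the 8 most abundant. Slc25a34 measured 39.3, 32.6, 31.1 and 32.5 FPKM in AAV-FGF17 hearts and 27.0, 48.4, 55.4 and 28.5 FPKM in control hearts. The AAV-FGF17 hearts lay between the control pairs, and its change was -0.05 ± 0.23 (SE, adjusted p = 0.726), against 0.29 without control hearts 2 and 3 (adjusted p = 0.931). Slc25a46 (chromosome 18, 31580168 to 31609902, minus strand) measured 21.8, 22.7, 23.3 and 26.1 FPKM in AAV-FGF17 hearts and 22.7, 19.3, 12.5 and 24.3 FPKM in control hearts. Here control hearts 2 and 3 were the lowest, and the change of 0.40 ± 0.19 (SE, adjusted p = 0.525) was 0.02 without them. Slc25a35 averaged 1.61 ± 0.517 against 1.54 ± 0.527 FPKM, and the relatives of uncoupling proteins Slc25a30 and Slc25a27 averaged 2.04 ± 0.486 against 1.98 ± 0.296 FPKM and 1.11 ± 0.292 against 1.18 ± 0.301 FPKM.

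Both members below the filter were also measured in every heart. Slc25a47, a member mainly known from liver, stood at 0.328, 0.61, 0.541 and 0.378 FPKM in AAV-FGF17 hearts and at 0.908, 1.19, 2.10 and 1.07 FPKM in control hearts. All AAV-FGF17 hearts lay below all controls. It was singled out after its values were seen, and with no filter on low values its change was -0.53 ± 0.15 (SE, limma adjusted p = 0.490). Every gene in the table has a larger group mean of at least 0.501 FPKM. The AAV-FGF17 mean of Slc25a47, 0.464 FPKM, is under that, so it is listed only through its control hearts (mean 1.32 FPKM). Its separation is therefore no support for a change. Slc25a14 averaged 0.529 ± 0.172 FPKM in AAV-FGF17 hearts and 0.869 ± 0.244 FPKM in control hearts.

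**Figure D4:**
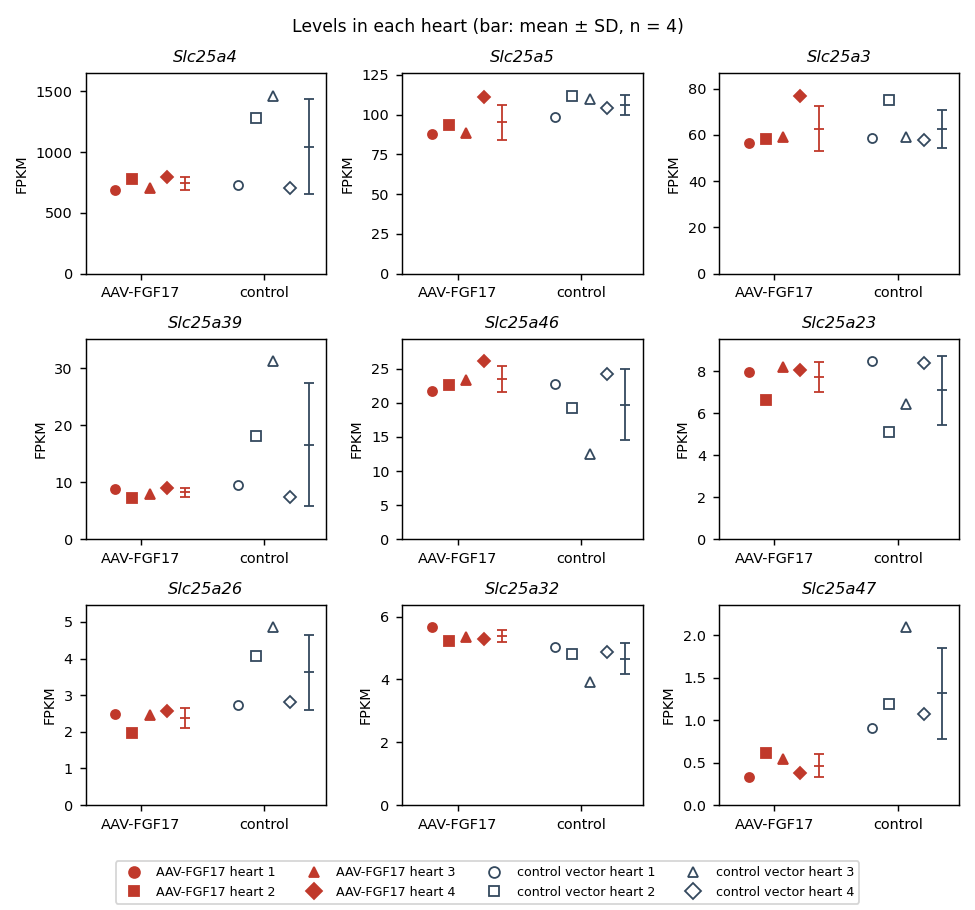
Level in FPKM of 9 Slc25 genes in each heart, AAV-FGF17 left of control vector, with symbols numbering the hearts and bars giving mean ± SD (n = 4 each). In Slc25a4 and Slc25a39 control hearts 2 and 3 lie above all others, in Slc25a46 and Slc25a23 they lie below, and in Slc25a26, Slc25a32 and Slc25a47 the groups do not overlap.

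Control hearts 2 and 3 set the direction of several members, so all 36 were examined in those hearts on the nuclear scale, where each heart is rescaled to a common sum without mitochondrially encoded genes. Both hearts lay above the other 6 in 4 members (11.1%), against 10.9% of 10006 nuclear genes, and below them in 7 members (19.4%), against 26.5%. The 4 above were Slc25a4, at 1.37 and 1.39 times its median over the 8 hearts, Slc25a39 at 1.65 and 2.52 times, Slc25a28 at 1.08 and 1.21 times and Slc25a26 at 1.24 and 1.31 times. Among the 7 below, Slc25a46 stood at 0.672 and 0.388 times its median, Slc25a23 at 0.516 and 0.579 times and Slc25a37 at 0.607 and 0.588 times. The others below were Slc25a20, Slc25a32, Slc25a36 and Slc25a40. Without these hearts 33 members passed the filter, their changes ran from -0.29 for Slc25a1 to 0.45 for Slc25a22, and 0 passed limma.

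Ratios between related carriers within a heart do not depend on how the library was scaled. Of the 8 fixed ratios 7 could be computed, since Slc25a18 is not among the listed members. All 7 overlapped between the groups, and the smallest two-sided exact permutation p that 4 against 4 hearts allow is 0.0286. Slc25a5 stood at 0.127, 0.121, 0.125 and 0.139 of Slc25a4 in AAV-FGF17 hearts and at 0.136, 0.0872, 0.0750 and 0.147 of it in control hearts. The translocator ratio was thus lowest in control hearts 2 and 3 (log2 difference 0.26, exact permutation p = 0.400, adjusted p = 0.560). Slc25a13 to Slc25a12 was 1.72, 1.49, 1.61 and 1.69 in AAV-FGF17 hearts and 1.53, 1.54, 1.34 and 1.58 in control hearts (log2 difference 0.12, exact permutation p = 0.171, adjusted p = 0.560). Slc25a1 to Slc25a11 averaged 0.0328 ± 0.0131 against 0.0444 ± 0.00745 (SD, n = 4 each, exact permutation p = 0.171). Slc25a40 to Slc25a39 was 0.207, 0.231, 0.244 and 0.192 in AAV-FGF17 hearts and 0.209, 0.0909, 0.0590 and 0.249 in control hearts (exact permutation p = 0.343). The mitoferrin ratio, Slc25a28 to Slc25a37, was 3.56, 3.84, 2.59 and 3.94 in AAV-FGF17 hearts and 3.28, 6.70, 7.74 and 3.03 in control hearts (exact permutation p = 0.343). Slc25a33 to Slc25a36 and Slc25a24 to Slc25a23 had exact permutation p-values of 0.943 and 0.886.

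**Figure D5:**
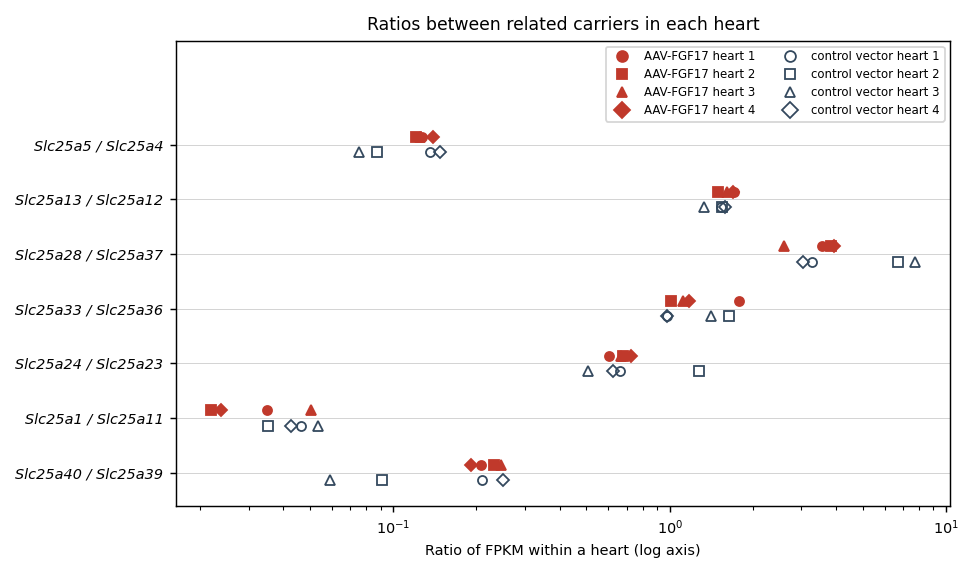
Ratio of FPKM between related carriers in each heart on a log axis, with AAV-FGF17 hearts above control hearts in each row. Control hearts 2 and 3, the open square and triangle, lie apart from control hearts 1 and 4 in the ratios of Slc25a5 to Slc25a4, Slc25a28 to Slc25a37 and Slc25a40 to Slc25a39, while the AAV-FGF17 hearts lie near control hearts 1 and 4.

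Further members of the carrier family do not bear an Slc25a symbol in the table. Mtch1, a relative in the outer membrane, measured 10.9, 14.6, 11.5 and 10.2 FPKM in AAV-FGF17 hearts and 16.1, 20.6, 31.0 and 15.7 FPKM in control hearts, with no overlap of the groups (limma adjusted p = 0.495). Mtch2 averaged 15.7 FPKM against 16.6 FPKM. The uncoupling protein Ucp1, a marker of brown fat, stood at 5.06, 0.527, 7.93 and 7.47 FPKM in AAV-FGF17 hearts and at 14.6, 11.9, 12.2 and 15.7 FPKM in control hearts. Ucp1 too did not overlap between the groups (limma adjusted p = 0.495). None of these 5 genes, with Ucp2 and Ucp3, passed the test. Of 4 tested brown fat markers, Ucp1 among them, 3 lay below the median gene. The other, Ppargc1a, lay above it at 0.18, and none of the 4 passed. Enzymes that work with the carriers did not pass either. Of the 4 enzymes of the malate and aspartate shuttle, all lay below the median gene. Their median was -0.16, and it was -0.01 without control hearts 2 and 3. Got1 and Got2 lay lower in AAV-FGF17 hearts with no overlap of the groups, as did 4.64% of all genes. Got1 measured 105, 128, 119.7 and 119 FPKM in AAV-FGF17 hearts and 130.1, 189, 240.0 and 129 FPKM in control hearts (adjusted p = 0.495). Of 5 carnitine shuttle partners, 4 lay below the median gene and 1 above, and their median of -0.07 was -0.01 without control hearts 2 and 3. Cpt1b, the muscle form of the enzyme that makes acylcarnitine, averaged 66.4 FPKM against 81.3 FPKM.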

How the data were processed

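RNA of 8 mouse hearts was sequenced. StringTie 1.3.3, HISAT2 2.1.0, cutadapt 1.17 and FastQC 0.11.7 stand in the submitters' processing notes, with the build GRCm38. Per the file headers, the authors deposited FPKM, 1 value per gene and library. Read counts were not used here, so depth is unknown and precision rests on the spread between hearts. The table lists 11704 protein-coding genes besides 1 blank line. In each listed gene the larger group mean is at least 0.501 FPKM. Columns were matched to samples by the sample titles.

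Genes averaging 1 FPKM or more were compared on log2(FPKM + 1) by limma 3.58.1 (R 4.3.3; variance trend, no covariates) with Benjamini-Hochberg adjustment over all 10025 genes at 0.05. On that scale the change of a low gene is understated. Ratios of members within a heart were compared with two-sided exact permutation tests in scipy 1.17.1. Per-heart values and changes are given for the 8 most abundant members, members whose groups do not overlap and the 10 of smallest p. Partner genes are given as counts, with the most abundant or non-overlapping ones as values. Alternatives covered pseudocount, filter, scaling, weights, trend, a replicate block and libraries left out. Gene coordinates are those of the deposited table, and transcript lengths and overlaps are from GENCODE M21, whose gene coordinates are equal for 32 of 38 members. The members, lists and tests were chosen with earlier results of these data known. The values of 1 member are not reported here, while counts over the family include it.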

Additional observations from a re-analysis of the deposited data

Results flagged for a closer look

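Within a group of 4 hearts, 1 value can lie far from the other 3. Of 90 groups of 4 examined, over 38 members and 7 ratios, 9 held a heart whose gap to the nearest other passed Dixon's 95% critical value as a share of the group's range, while chance alone gives about 1 in 20. Slc25a3 had such a heart in both groups, AAV-FGF17 heart 4 at 77.0 FPKM and control heart 2 at 75.1 FPKM, with the others between 56.6 and 59.1 FPKM. Slc25a23 stood at 6.65 FPKM in AAV-FGF17 heart 2, below 7.96 to 8.19 FPKM in the others. Slc25a45 stood at 2.06 FPKM in AAV-FGF17 heart 3, above 1.07 to 1.13 FPKM. In control heart 3, Slc25a1 stood at 5.28 FPKM, above 2.46 to 2.82 FPKM, Slc25a10 at 2.54 FPKM, above 1.10 to 1.23 FPKM, and Slc25a36 at 3.90 FPKM, below 4.97 to 5.07 FPKM. Slc25a38 stood at 3.99 FPKM in control heart 2, above 3.27 to 3.33 FPKM, and Slc25a17 at 7.25 FPKM in control heart 4, below 9.83 to 9.99 FPKM. No flagged value belongs to a ratio.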

How the results depend on the processing

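Limma called 0 members in each direction under each of 20 alternatives, and the family median ran from -0.02 to 0.03. Over all genes the calls were 4 higher and 1 lower with array quality weights and 5 higher and 1 lower without control libraries 2 and 3. They ran from 0 to 1 higher and 0 to 3 lower when 1 library was left out. At an unadjusted p under 0.05 0 or 1 members stood higher, and 3 stood lower, against 0 without control library 3 or without control libraries 2 and 3, 0 with a mean of at least 5 FPKM, 1 with array quality weights or without AAV-FGF17 library 1, 2 or 4, 5 without control library 1 or with control libraries 1 and 4 averaged, and 7 without control library 4. The count was 2 when rescaled without mitochondrially encoded genes or without control library 2, 4 with no filter or without AAV-FGF17 library 3, and 3 under the other alternatives. Of 311 alternative values of 16 named members, 290 kept direction and 21 did not, with adjusted p-values between 0.289 and 0.998. Without control libraries 2 and 3 the change was 0.070 for Slc25a4, 0.069 for Slc25a11, 0.29 for Slc25a34 and -0.10 for Slc25a20. Array quality weights gave 0.24 for Slc25a34 and -0.073 for Slc25a20. Slc25a13 was -0.0039 with no filter, -0.0020 with quantile normalization and -0.011 with control libraries 1 and 4 averaged. With 1 library left out, Slc25a5 ran from -0.12 to 0.0050, Slc25a34 from -0.18 to 0.087, Slc25a13 from -0.045 to 0.068 and Slc25a20 from -0.053 to 0.072. The cause was not tested.

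Of 91 alternative values of 7 ratios, 82 kept direction and 9 did not, with a lowest adjusted p of 0.320. Where hearts are left out, the smallest exact permutation p allowed is higher than for 4 against 4 hearts. Without control libraries 2 and 3 the log2 differences were -0.15 for Slc25a5 to Slc25a4, 0.13 for Slc25a28 to Slc25a37, 0.055 for Slc25a24 to Slc25a23 and -0.066 for Slc25a40 to Slc25a39. Slc25a33 to Slc25a36 was -0.080 with control libraries 1 and 4 averaged. With 1 library left out it ran from -0.15 to 0.17, and Slc25a24 to Slc25a23 from -0.28 to 0.17.

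Same-numbered hearts correlated at 0.013, 0.0043, 0.022 and -0.11 in their deviations from the group means, and AAV-FGF17 hearts 1 to 4 were closest to control hearts 4, 1, 1 and 2. The labels do not say that the numbers pair the hearts, and with 4 hearts a group these correlations cannot settle it. With the number as a replicate block limma called 0 members in each direction, the smallest adjusted p of a named member being 0.494. In groups of equal size such a block cannot change an estimated difference. Without read counts, the depth that limits low members is unknown.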

Other observations

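Genes that work beside the carriers were read from fixed lists, and none of them passed limma. The outer membrane channels pass metabolites to the carriers. Vdac1, the most abundant of them, averaged 245 FPKM in AAV-FGF17 hearts and 281 FPKM in control hearts, and 3 of the 4 listed channel genes lay below the median gene. The median of the 4 was -0.10, against 0.05 without control hearts 2 and 3. The pyruvate carrier is made of the products of Mpc1 and Mpc2. Mpc1 measured 69.8, 57.6, 68.8 and 68.0 FPKM in AAV-FGF17 hearts and 63.8, 41.0, 51.2 and 65.1 FPKM in control hearts, while Mpc2 measured 14.6, 15.5, 15.0 and 17.6 FPKM against 16.6, 24.3, 20.4 and 15.1 FPKM, so its subunit genes lay on opposite sides in control hearts 2 and 3.

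Of the 13 genes of the machinery that imports carriers into the inner membrane, 9 lay above the median gene and 4 below. Its most abundant genes encode small chaperones of the space between the membranes. Timm8b measured 100.1, 116, 115 and 134 FPKM in AAV-FGF17 hearts and 105, 123, 99.5 and 107 FPKM in control hearts. Timm10 measured 60.1, 65.3, 65.5 and 81.4 FPKM in AAV-FGF17 hearts and 61.4, 75.1, 72.9 and 65.1 FPKM in control hearts. In both genes AAV-FGF17 heart 4 was the highest of its group and control heart 2 the highest of its group, the same hearts that held the highest values of Slc25a3. Of the 6 genes of the calcium uniporter complex, 4 lay above the median gene and 2 below, and Smdt1, its essential regulator, averaged 63.8 FPKM in AAV-FGF17 hearts and 66.7 FPKM in control hearts.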
